A study of Drosophila melanogaster with 2 samples.

Results

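The genes described are HmgZ, HmgD, Dsp1 and Ssrp, which encode chromatin proteins with an HMG box, and they are 4 of 13968 protein-coding genes on the main chromosome arms. They were chosen by name from the Drosophila melanogaster annotation with their peaks already known, so their own peaks are a description and carry no test. Every peak with its summit inside one of these genes or within 2 kb of it was taken. The data come from chromatin immunoprecipitation with sequencing (ChIP-seq) of CG7372, a fly gene named Phs in the annotation, fused to eGFP and pulled down with an antibody against GFP. The source was whole embryos of strain CG7372-GFP aged 0 to 24 h, in 2 biological replicates of 1 group, so all cell types and stages of embryogenesis are mixed in each peak. No untagged or input library was analysed here, and what drives the fusion is not given in the sources used here. A gathering of fragments at open chromatin in general therefore cannot be told apart from binding of the tagged protein.

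The HMG box is a small fold that sits in the minor groove of DNA and bends it. HmgD and HmgZ are abundant fly proteins with 1 such box that bind DNA with little regard to its sequence. HmgD is known from early embryonic chromatin. Dsp1 is the fly relative of vertebrate HMGB1 and was found as a co-repressor that works with the Dorsal protein. Ssrp joins the product of dre4 (Spt16) in FACT, the histone chaperone that opens and rebuilds nucleosomes as polymerases pass.

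The authors deposited 8 peak lists on the dm6 assembly, 4 of them ranked and 4 of them thresholded by IDR, the irreproducible discovery rate, which asks how well 2 sets of peaks rank a site alike. The conservative thresholded list, made from both replicates, held 4593 peaks on the main arms, a second series-level list held 4781, replicate 1 held 2800 and replicate 2 held 3080. The ranked lists, which also hold peaks that fail the threshold, ran from 54168 to 98410 peaks. Each peak carries a signal that the authors computed, in units the files do not explain, so it is compared only within 1 list, and ranks (1 is the strongest) are used across lists. The files give no read counts, so depth is unknown.

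In the conservative list 3 of the 4 genes had a peak. HmgD had 5 peaks, HmgZ 4, Dsp1 2 and Ssrp 0. The peaks of HmgZ and HmgD were largely the same ones, because these genes overlap, so the 4 genes held 7 distinct peaks. Replicate 2 alone gave 6 distinct peaks at these genes, and replicate 1 alone gave 4. Those of replicate 1 include a weak peak with its summit at 21700350 that is not one of the 7. Over all protein-coding genes the share with a conservative peak was 33.0%. In the series-level list 3 of 4 genes had a peak, against 33.8% of all genes. In replicate 1 alone it was 3 of 4, against 23.9%, and in replicate 2 alone 3 of 4, against 26.3%. All 4 genes had a peak in each ranked list, but so did 93.9% of all genes in the conservative ranked list, 94.6% in the series-level one, 93.0% in that of replicate 1 and 92.5% in that of replicate 2. As the genes were picked with these peaks in view, nothing is read from the differences.

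The shared HmgZ and HmgD locus carried several peaks rather than 1. Of all genes, 10.2% had at least 2 conservative summits, 1.56% at least 4 and 0.802% at least 5. Long genes have more room for peaks, so each gene was also set beside protein-coding genes of a span within 1.5-fold of its own. HmgZ, with 4 summits over 10374 bp, stood beside 1309 such genes with a median of 0 summits, and 1.83% of them had at least as many. The HmgZ count was 3 without replicate 1, without replicate 2, with windows of 500 and 1000 bp and among peaks above the median signal. It was 5 in the series-level list and with a window of 5000 bp. HmgD, with 5 summits over 15270 bp, stood beside 1044 genes with a median of 1, and 1.72% had at least as many. The HmgD count was 3 without replicate 2, with a window of 500 bp and among peaks above the median signal. Without replicate 2 the HmgZ and HmgD counts include the replicate 1 peak at 21700350, which is not among the conservative peaks. Dsp1, with 2 summits over 7013 bp, stood beside 1805 genes with a median of 0, and 14.6% had at least as many. The Dsp1 count was 1 without replicate 2 and with a window of 500 bp. Ssrp spans 2644 bp, and 30.8% of the 3982 genes of like span had a summit.

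**Figure D1:**
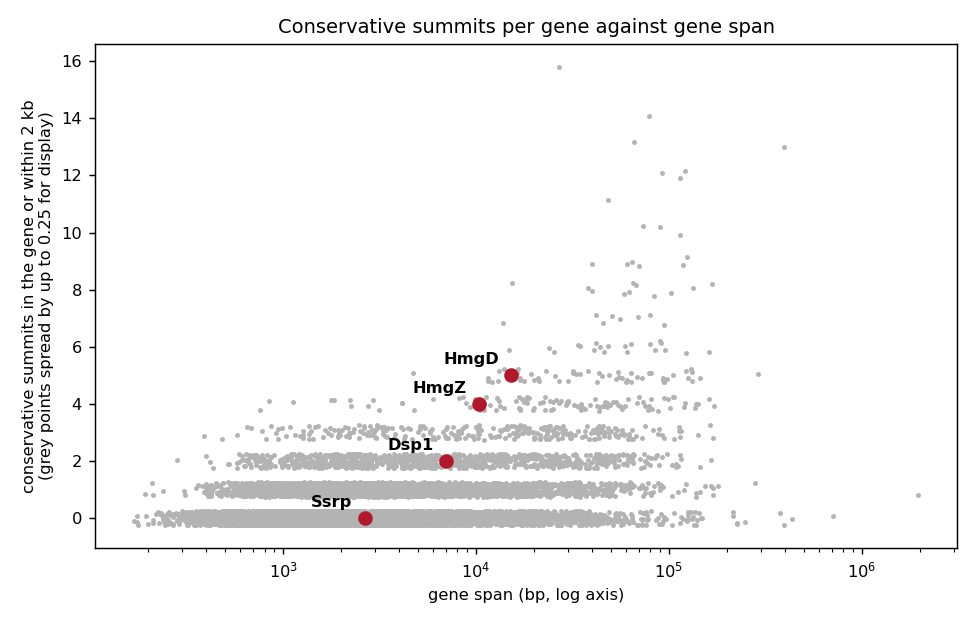
Number of conservative peak summits in each protein-coding gene or within 2 kb of it (vertical axis) against gene span in bp (horizontal log axis). Red points are HmgD, HmgZ, Dsp1 and Ssrp with 5, 4, 2 and 0 summits, and grey points are the other protein-coding genes, spread vertically for display. HmgD and HmgZ lie toward the upper edge of genes of their span, and Ssrp lies among the many genes with 0.

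HmgZ (FBgn0010228) lies on the minus strand at 2R:21697488-21707861, with 4 annotated transcripts that start at 3 sites and encode the same 111-residue protein. HmgD (FBgn0004362) lies on the plus strand at 2R:21701458-21716727, with 4 transcripts, 3 transcription start sites (TSS) and a 112-residue protein. The records overlap by 6404 bp, because the longest transcript of each gene begins inside the other gene and reaches its coding exons through a long intron. The 5 summits between them are called peaks A to E here, in the order of the reference sequence, and they span 11934 bp. The nearest other conservative summit was 30130 bp away. Peaks A, B, C and D counted for both genes, and peak E for HmgD only.

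Peak C was the strongest peak at any of the 4 genes. Its summit at 2R:21703410 had a signal of 954, against a list median of 88.3, and ranked 19 of 4593 in the conservative list and 19 of 4781 in the series-level list. In replicate 1 the peak had a signal of 546 and ranked 15 of 2800, and in replicate 2 it had a signal of 408 and ranked 21 of 3080. The replicate summits lay 36 bp apart. The peak was therefore among the leading sites of every list, but the lists of the series were made from the same replicates and are not separate evidence. The summit was 580 bp upstream of the HmgZ start used by 2 transcripts (21702830) and 1952 bp downstream of the first HmgD start. It fell in an intron of both genes and outside 500 bp of every annotated start of either. The peak was 433 bp wide, from 21703188 to 21703620, whereas 84.0% of the list had a fixed width of 340 bp. None of the 100 strongest peaks had that fixed width, and their median width was 275.5 bp. A width other than 340 bp thus does not set peak C apart from peaks of like strength.

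Peak A was the second strongest at these genes. Its summit at 2R:21700145 had a signal of 342 and ranked 211 of 4593. It ranked 236 in replicate 1, with a signal of 182, and 192 in replicate 2, with a signal of 166, and the replicate summits were 6 bp apart. It lay in the intron before the HmgZ coding exons, 2685 bp downstream of the nearest HmgZ start, and 1313 bp upstream of HmgD. In replicate 1 a further peak overlapped it, with its summit at 21700350, a signal of 28.6 and rank 2725 of 2800. The peak was 202 bp wide. Both replicates thus placed a peak in this HmgZ intron, and replicate 1 added a weak neighbour.

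The other 3 peaks at this locus were weaker and less evenly supported. Peak B (summit 21700795), also in the HmgZ intron and 663 bp upstream of HmgD, had a signal of 96.6 and ranked 1995. It passed the threshold in replicate 2, at rank 1175 with a signal of 64.0, but not in replicate 1, where its score was 151. Peak E (summit 21712079) had a signal of 75.8 and ranked 2886. It passed in replicate 2, at rank 2571 with a signal of 38.0, and missed in replicate 1, with a score of 52. Both peaks were still present in the ranked list of replicate 1. There peak B had a signal of 48.4 and rank 2368 of 54168, and peak E had a signal of 38.9 and rank 3373. Peak D (summit 21709755) had a signal of 57.0 and ranked 3996, and neither replicate called it alone, with scores of 391 in replicate 1 and 805 in replicate 2 against the 830 that the threshold needs. Its −log10 q-value of 1.07 was under the 1.30 that stands for a q of 0.05, as for 20.4% of the list.

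Peaks D and E lay nearer to the starts of other genes than to those of HmgD. Peak D was 160 bp upstream of lncRNA:CR44749, a noncoding RNA gene, and 3601 bp upstream of the nearest HmgD start. Peak E was 466 bp upstream of CG30403, a protein-coding gene, and 1277 bp upstream of the nearest HmgD start. Both of these neighbours sit inside the long HmgD intron on the opposite strand, so a peak within it may be counted for HmgD by position alone. These genes share the summits and are not told apart.

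**Figure D2:**
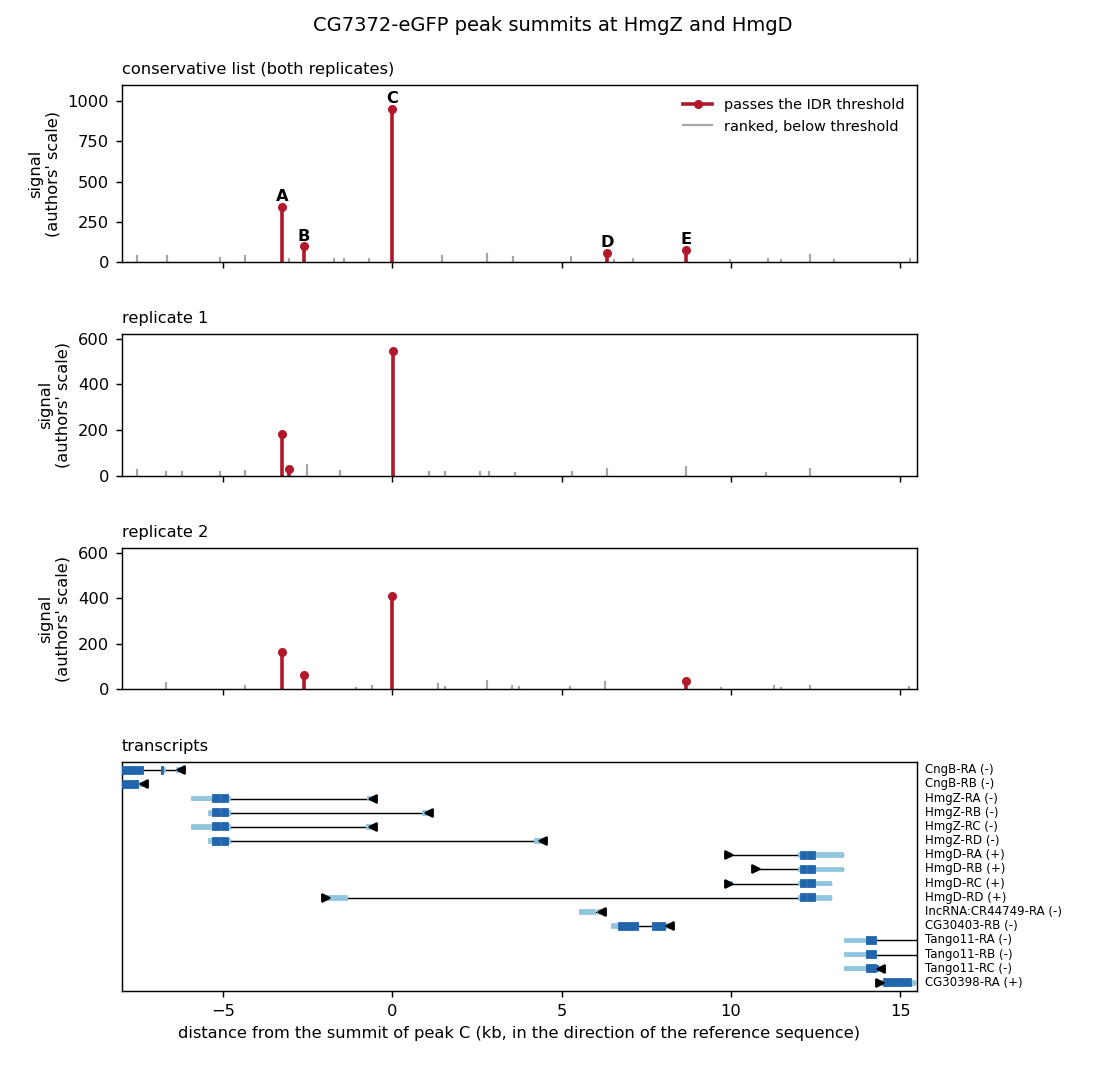
Peak summits at HmgZ and HmgD. The horizontal axis is the distance in kb from the summit of peak C, and stems give the authors' signal in the conservative list and in each replicate, on separate scales, with red for peaks that pass the IDR threshold and grey for ranked peaks that do not. The lower panel shows transcripts, with coding exons in dark blue, other exons in light blue and an arrowhead at each start. Peaks A and C stand out in all 3 tracks, B and E pass in replicate 2 only, and D in neither replicate.

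The limits that decide which peaks are counted fall between the following values. Peak D lay 1894 bp outside HmgZ and was kept, whereas peak E lay 4218 bp outside and was not counted for HmgZ. The ranked conservative peak at these genes that came nearest to the threshold without passing had its summit at 21700354, a signal of 20.8 and a score of 704, an IDR of 2.02%. The series-level list held 1 further peak in the HmgZ and HmgD overlap, with its summit at 21706214, a signal of 50.02 and a score of 994. In the conservative ranked list the same peak had a score of 80.

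Base composition set the peaks of the locus apart from one another. Over the summit base and 50 bp on each side of it, peak C was 69.3% A+T, against 41.6% in windows of the same length 300 bp to either side, a difference of 27.7 percentage points. Peak E was 72.3% A+T, which was 13.4 points above its flanks. Peak D was 73.3% A+T, with flanks 300 bp away at 74.8%. Nearer windows centred 200, 150 and 100 bp below its summit held 53.5, 54.5 and 52.5%, so its place beside its flanks depends on the distance taken. Peaks A and B went the other way, at 46.5% and 49.5% A+T, with differences from their flanks of −8.91 and −11.4 points. Over all conservative peaks the median was 63.4%, the 25th and 75th percentiles were 53.5 and 71.3%, and the median summit was 6.44 points above its flanks. Peak A was thus near the low end of the list, with 10.3% of peaks at or below its value, and peak C above the middle, with 69.4% at or below. In the genome sequence used, 48.5% of the bases at peak A and 64.4% at peak D were soft-masked as repeats. It was 21.8% at peak C, 27.7% at peak E and 0% at peak B. No share over all conservative peaks is given beside these, and the part of repeats in these peaks was not tested.

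Short sequence words were sparse at the same peaks. The words searched on both strands were CATACGCC, GCGTATAC and CGCATACG, which were taken from earlier results on these peaks, CGTAT, which is contained in each of those or in its reverse complement, TATCGATA (the DRE element) with its core CGATA, the repeat GAGAG, GGTCACAC (Motif 1) and CAGGTAG (the Zelda site). Peak A held CGCATACG 2 times, with the copies centred 32.5 bp and 0.5 bp below the summit and 32 bp apart, and the 2 matches to CGTAT there are parts of these copies. Of all conservative peaks 7.84% held CGCATACG in this window and 0.588%, 27 peaks, held it at least 2 times. Peak C held none of the 9 words. Among the 100 strongest peaks 10 held CGTAT and 0 held CGCATACG, against 30.8% and 7.84% of all peaks, so most of the 100 strongest peaks, like peak C, lacked both. Peak B held CGATA 6 bp below its summit, a word in 13.7% of peaks, and peak E held GAGAG 1 bp above its summit, a word in 9.43%. Peak D held none.

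Dsp1 (FBgn0278608) lies on the plus strand at X:16333612-16340624, with 7 transcripts, 2 start sites and proteins of 385 to 397 residues. Its 2 conservative peaks were 2344 bp apart, 1 upstream of the gene and 1 inside it, and the nearest other conservative summit was 12449 bp away. The same window at each summit is shown on the plus strand of the RefSeq Release 6 sequence, because it is the DNA on which the composition values below rest, with the longest unbroken run of A and T in capitals. The upstream window is chrX:16332960-16333060 and the internal one is chrX:16335304-16335404.
Dsp1 upstream peak: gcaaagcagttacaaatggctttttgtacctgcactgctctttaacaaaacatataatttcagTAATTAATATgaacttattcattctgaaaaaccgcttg
Dsp1 internal peak: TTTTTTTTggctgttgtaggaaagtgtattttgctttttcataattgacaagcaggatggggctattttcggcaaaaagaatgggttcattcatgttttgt

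The upstream Dsp1 peak (summit X:16333010) had a signal of 273 and ranked 350 of 4593 in the conservative list. In replicate 1 it had a signal of 174 and ranked 253 of 2800. In replicate 2 it had a signal of 90.1 and ranked 638 of 3080, with a summit 35 bp from that of replicate 1. Both replicates called it, and it stood higher in the order of replicate 1. The summit was 602 bp upstream of the first Dsp1 start, but it also fell in an intron of CG9921, which is transcribed in the opposite direction from a start 12 bp away from that of Dsp1. It was 590 bp downstream of this CG9921 start, so this start and the first Dsp1 start were about equally far from it. The summit lay outside the other CG9921 transcript, whose start was at -1564 bp from the first Dsp1 start.

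The internal Dsp1 peak (summit X:16335354) was weaker, with a signal of 92.1 and rank 2157. It passed in replicate 2, with a signal of 55.9 and rank 1484, but in replicate 1 it had a score of 589, an IDR of 3.81%. It lay in the large intron, 1742 bp downstream of the first start and 830 bp upstream of the second, which only the transcript Dsp1-RF uses. As printed above, the upstream window was 68.3% A+T, 5.45 points above its flanks, with a longest A or T run of 10 bp. The internal window was 65.3% A+T, a difference of −3.96 points from its flanks, with a run of 8 bp. The median longest run over all peaks was 9 bp. None of the 9 words lay in either window. With 150 bp on each side of the summit, the upstream peak held CGTAT once, 107 bp below the summit, and 46.9% of all peaks held that word in a window of this length.

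**Figure D3:**
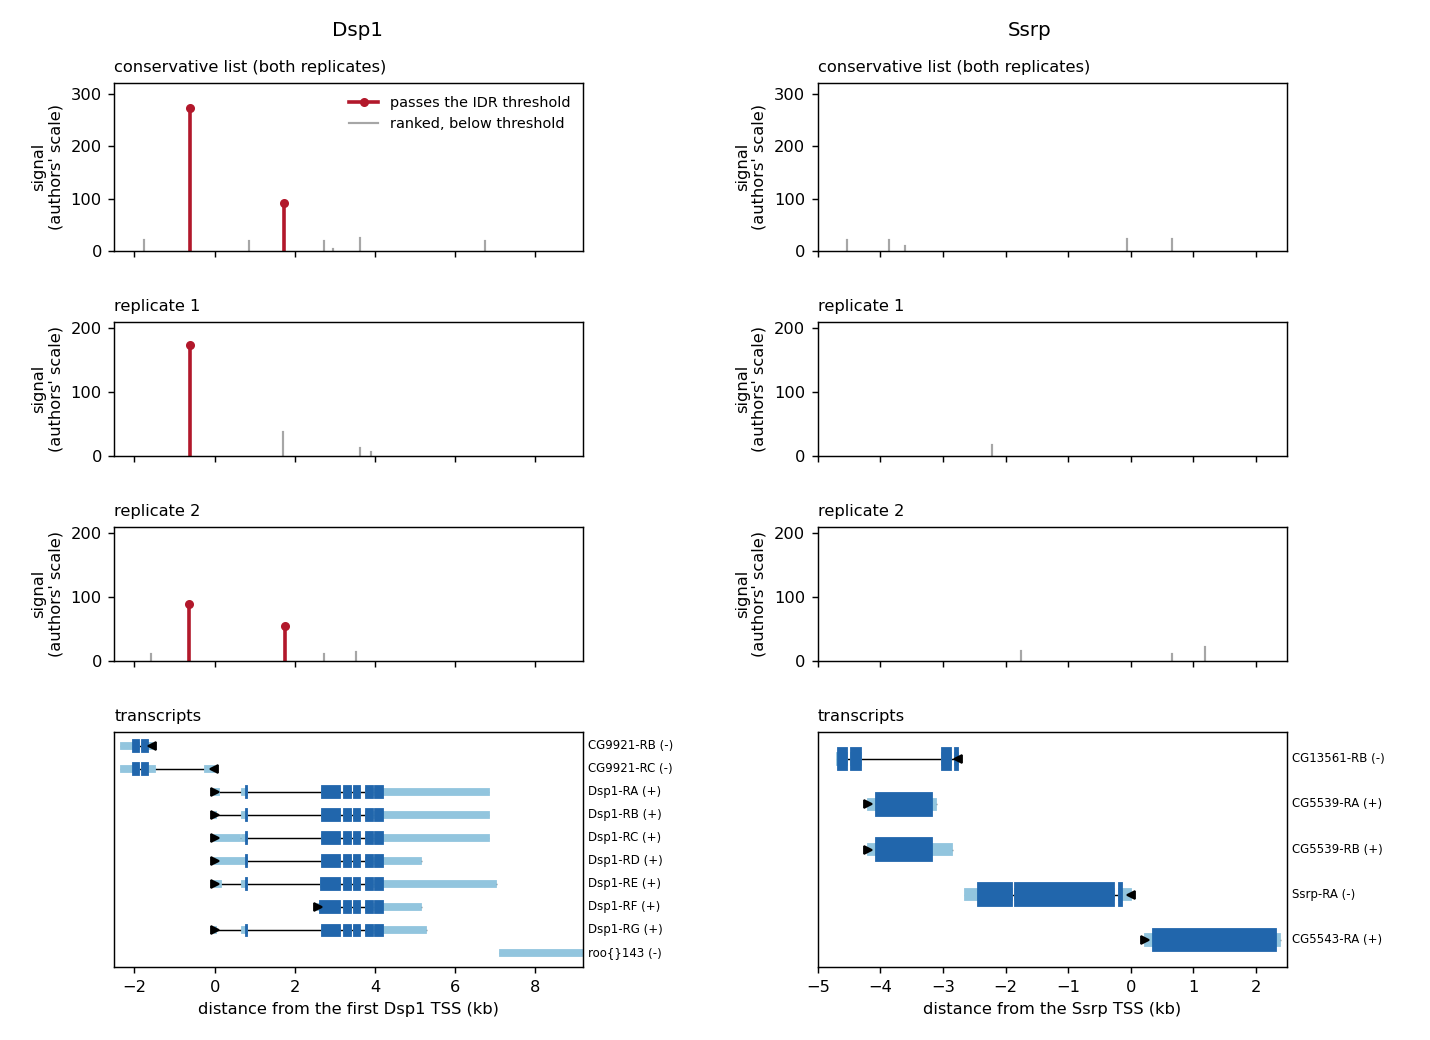
Peak summits at Dsp1 (left) and Ssrp (right), drawn as stems of the authors' signal against the distance in kb from the first TSS of each gene, in the direction of the reference sequence. Red stems pass the IDR threshold, grey stems are ranked peaks that do not, and the lower panels show transcripts with coding exons in dark blue. Dsp1 has an upstream peak in all 3 tracks and an internal one that fails in replicate 1, and Ssrp has grey stems only.

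Ssrp (FBgn0010278) lies on the minus strand at 2R:23806361-23809004, with 1 transcript and a protein of 723 residues, and its start is 232 bp from that of CG5543 on the other strand. It had 0 peaks in all 4 thresholded lists. The nearest conservative summit was 11000 bp from its start, upstream, with a signal of 69.0. It had 5 peaks in the conservative ranked list, beside a median of 6 over genes of like span, and 6, 1 and 3 in the series-level, replicate 1 and replicate 2 ranked lists. In the conservative ranked list the strongest lay 63 bp downstream of the start, with a signal of 23.9 against a list median of 19.5, rank 31269 of 89561 and an IDR of 86.5%. In the series-level ranked list the strongest lay 1194 bp upstream, at rank 16395 of 98410 and an IDR of 44.95%. In replicate 1 it lay 2215 bp downstream, at rank 19726 of 54168, and in replicate 2 it lay 1192 bp upstream, at rank 7161 of 57681. The replicates thus did not place their strongest Ssrp peak at the same site. A signal under the threshold does not show that the tagged protein is absent there.

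None of the 4 genes had a conservative summit within 500 bp of one of its own starts. Over all protein-coding genes 16.7% did, 2330 of them, so most genes had none either. Ssrp had no conservative peak at all, and nothing is read from the difference. Lower-ranked peaks lay within 500 bp of most starts of HmgZ, HmgD and Dsp1, but not of all. In the conservative ranked list the summit nearest to the first Dsp1 start was still the upstream peak, 602 bp away. That nearest to the HmgZ start at 21707861 was 839 bp away. In the conservative ranked list a peak with a signal of 10.1 lay 18 bp from the HmgD start at 21713356, one of 19.4 lay 218 bp from the HmgD start at 21701458, and one of 19.5 lay 107 bp from the HmgZ start at 21702830. The third HmgD start, at 21714136, had one with a signal of 20.6 at 375 bp downstream. The HmgZ start at 21704501 had a peak with a signal of 38.8 at 373 bp upstream. The second Dsp1 start had one with a signal of 19.4 at 165 bp downstream. These signals were close to or under the ranked list's median of 19.5, apart from the peak of 38.8, and all 6 peaks had scores of 130 or less. The 7 conservative peaks lay in introns of these genes or, for the upstream Dsp1 peak, of a neighbour, each at 580 bp or more from the nearest start of the gene.

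Support from the replicates was uneven over the 7 peaks. Peaks A and C and the upstream Dsp1 peak were matched by thresholded calls in both replicates, 3 of 7, against 46.8% of all conservative peaks. Peaks B and E and the internal Dsp1 peak were matched in 1 replicate, 3 of 7, against 26.9%, and each time it was replicate 2. Peak D was matched in neither, 1 of 7, against 26.3%. Support goes with signal over the whole list. Of the strongest 25% of conservative peaks 99.4% were called in both replicates, of the next 25% it was 68.2%, then 12.4%, and of the weakest 25% it was 7.40%. The 3 peaks with both replicates at these genes belonged to the strongest 25%.

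**Figure D4:**
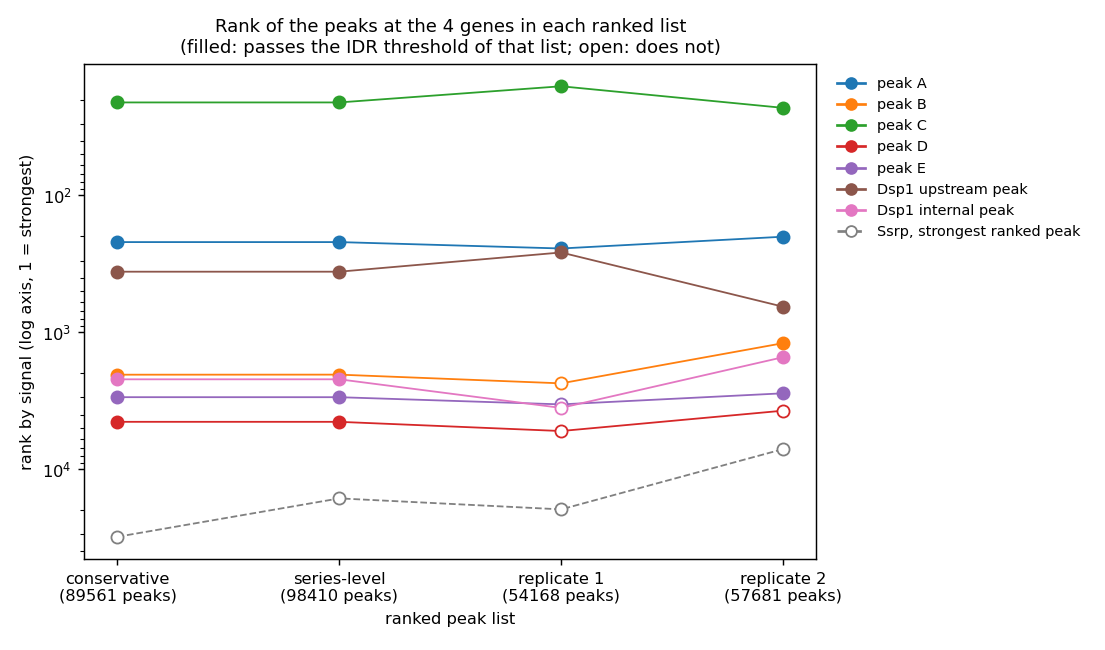
Rank by signal (vertical log axis, 1 at the top) of each of the 7 conservative peaks at HmgZ, HmgD and Dsp1 in the 4 ranked lists, with the strongest ranked peak at Ssrp as a dashed line. Filled points pass the IDR threshold of the list and open points do not. Peak C stays between ranks 16 and 23, the upstream Dsp1 peak moves between 262 and 652, and the strongest Ssrp peak comes no higher than rank 7161.

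**Figure D5:**
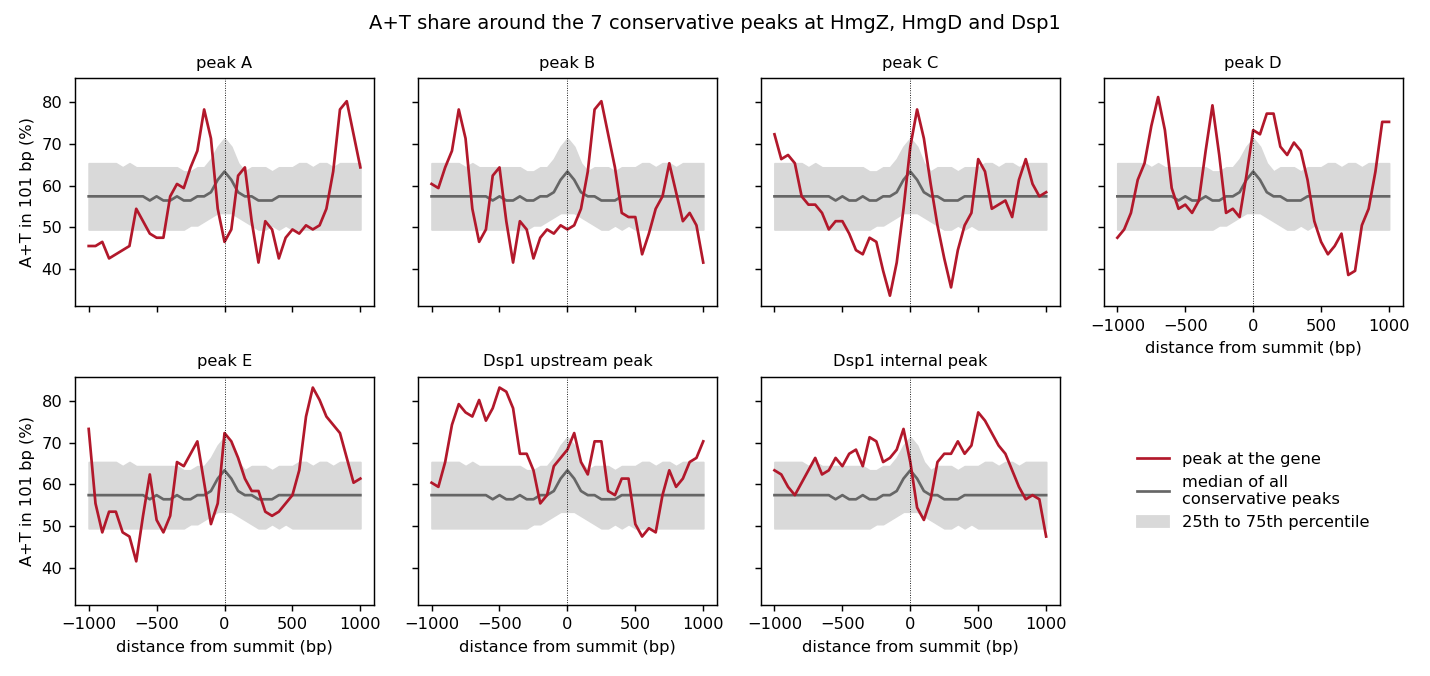
A+T share in sliding windows of 50 bp on each side of a base (vertical axis, %) against distance from the summit in bp for each of the 7 peaks (red), beside the median (dark grey line) and the range from the 25th to the 75th percentile (light grey band) of all 4593 conservative peaks. Peak C is A+T-rich at the summit and G+C-rich in its flanks, peaks A and B lie under the grey band at the summit, and 3 of the 7 peaks are above their flanks.

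Summit composition and flanks taken over all 7 peaks gave 3 with more A+T at the summit than 300 bp away (C, E and the upstream Dsp1 peak), against 62.6% of all conservative peaks. The 2 most A+T-rich summits, D at 73.3% and E at 72.3%, were the 2 weakest peaks, and the strongest, C, was in between at 69.3%. Over the whole list the median summit was 71.8% A+T among the 100 strongest peaks, 69.3% among the strongest 25%, then 64.4 and 60.4%, and 58.4% among the weakest 25%. Peak C was thus close to the median of peaks of its strength, peak A at 46.5% was below that of the strongest 25%, and peaks D and E were above those of weaker peaks. The summit windows of peak C in the replicates alone were 73.3% A+T in replicate 1 and 62.4% in replicate 2, whose summits lie 36 bp apart.

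Genes whose strongest peaks held the nearest ranks in the 4 ranked lists were sought among 12329 protein-coding genes with a peak in all 4 lists and no peak shared with the 4 genes. Likeness was the sum over the lists of the absolute difference in log10 rank. HmgZ and HmgD, with ranks of 21, 21, 16 and 23 in the conservative, series-level, replicate 1 and replicate 2 lists, were nearest to AlaRS, an alanyl-tRNA synthetase gene, and CG13390, at 22, 22, 18 and 25 and a sum of 0.128. Dsp1, at 362, 362, 262 and 652, was nearest to CG6204 and SMC6, which encodes a subunit of the SMC5/6 complex, at 400, 400, 293 and 655 and a sum of 0.137. Ssrp, at 31269, 16395, 19726 and 7161, was nearest to ND-B18, a gene of mitochondrial complex I, and opm, at a sum of 0.244. Both genes of each such pair had identical ranks, so within each list they share their strongest peak. For Ssrp the strongest peak was not at the same site in all 4 lists.

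Other genes of related function were counted from lists chosen with earlier results of these data known. Of 17 other HMG-box genes 7 had a conservative summit (41.2%), against 33.0% of all genes, and their strongest peaks had a median signal of 157, against 111 over all genes with a peak. Their median span was 5293 bp, against 2164.5 bp over all genes, so they offer more room. Sox14, a Sox-family transcription factor gene, had the strongest, with a signal of 748, rank 35 and a summit 248 bp upstream of its start. bbx had a signal of 338 at 228 bp upstream, cic, which encodes the repressor Capicua, had 243 in an intron, and Sox21a had 157 at 296 bp upstream. The peaks of Sox14, bbx and Sox21a lay within 500 bp of a start, unlike those of HmgZ, HmgD and Dsp1. Such a peak was found at 4 of the 7 genes, beside 2330 of the 4609 protein-coding genes with a summit.

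Of 12 histone chaperone genes 7 had a conservative summit (58.3%), against 33.0% of all genes, with a median signal of 71.8 for the strongest peaks, against 111 over all genes with a peak. Their median span was 3169.5 bp, against 2164.5 bp over all genes. The count was 4 of 12 without replicate 1, against 26.3% of all genes, and 3 of 12 without replicate 2, against 23.9%. The gene of the other FACT subunit, dre4, had 2, the stronger with a signal of 204, rank 583 and a summit 935 bp upstream of its start, and both replicates called it, whereas Ssrp had 0. Caf1-55, a subunit of several chromatin complexes, had a peak of 1319 at rank 7, but its summit was at the start sites of Art3 and mRpS10. Nph and Nlp shared 1 summit with a signal of 71.8. Of 8 chromatin architecture genes 4 had a summit, against 33.0% of all genes, with a median signal of 87.3 and a median span of 2128 bp. The count was 1 of 8 without replicate 1, against 26.3% of all genes. The gene of the heterochromatin protein HP1a had the strongest at 566, shared with the starts of CG8360 and CG8372. HP1b had 102, shared with CG7246, Su(var)3-7 had 72.7, shared with Ravus, and Top2, the DNA topoisomerase II gene, had 47.2.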

How the data were processed

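ChIP-seq peak lists of 2 biological replicates of CG7372-eGFP embryos were used, from chromatin sonicated to 200 to 800 bp, per the labels. The sources used here name no aligner, peak caller or version. The deposited files give each peak a signal on a scale that is not stated, a score that follows the IDR (830 stands for an IDR of 0.01, the lowest score in each thresholded list), the −log10 of a q-value, the −log10 of the IDR in the ranked lists, and the summit's offset. A further 16 columns of per-sample values in the ranked lists of the series were not used. Whether a peak of a series list was also called in a replicate was taken from 1 bp or more of overlap with that replicate's thresholded list. Ranked peaks with scores of 830 or more that the thresholded lists omit numbered 60 to 91 per list, with 0 at these genes.

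Summits were assigned to genes with Ensembl's release 115 annotation (BDGP6.54), on 2L, 2R, 3L, 3R, 4, X and Y. Sequence came from the RefSeq Release 6 genome, within whose arm lengths all peaks and genes lay. Python 3.11.15 and matplotlib 3.10.9 were used, and the counting code was tested on simulated data. No test was made: the design has 1 group, and the 4 genes, gene lists and words were chosen with earlier results of these data known.

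Genes were named by rule: the 4 genes, every gene whose body holds a conservative summit at them or whose start lies within 500 bp of one, up to 4 members of each list with a summit in order of signal, for each of the 4 the 2 genes of nearest rank, and CG7372. CG5543 and genes that share a summit with a list member are named beyond it, as neighbours, and were chosen after their values were seen.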

Additional observations from a re-analysis of the deposited data

How the results depend on the processing

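The alternatives used the series-level list, each replicate alone, windows of 500, 1000 and 5000 bp, peaks above the median signal, merged peaks, other sequence windows and other start sites. Of the recomputed values 97 stayed near the value reported, 16 moved further and 1 changed direction. Near meant within 1.5 times it for counts, or within 1 SD between the replicates for ranks, positions and A+T shares. Ranks, positions and shares of a replicate alone were thus judged against the spread of the same replicates. The rank of peak C was also entered for the 4 genes, HmgZ and HmgD alike, so the 97 values are not separate results. The 7 peaks at the 4 genes became 4 to 6 when a replicate was left out, with the 4 coming without replicate 2. These 4 include the replicate 1 peak at 21700350, which is not one of the 7. The 3 genes with a peak became 0 when a summit within 500 bp of a start was required. The strongest peak is 580 bp upstream of the nearest HmgZ start but lies at 4451 bp downstream of the 5′ end of the gene record, because its transcripts start at several sites. With a window of 5000 bp 14 of 17 other HMG-box genes had a summit, and so did 6539 of 13968 protein-coding genes. When a replicate was left out, 3 to 4 of 12 histone chaperone genes and 1 to 3 of 8 chromatin architecture genes had a summit. Over all protein-coding genes it was 3344 to 3671 of 13968. Above the median signal the counts were 2 of 12 and 2 of 8, beside 3047 of 13968. Apart from the constructions named, the cause of these shifts was not tested. The rank of the strongest Dsp1 peak was 638 without replicate 1 and 2157 with a window of 500 bp, which leaves the upstream peak out. No paired analysis was possible because the design has 1 group. Depth is unknown, so weak peaks that pass in 1 replicate cannot be weighed by it.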

Other observations

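At Phs (CG7372), the gene that encodes the tagged protein (FBgn0036522, 3L), 3 conservative summits lay in the gene or within 2 kb of it. Over all 13968 protein-coding genes 10.2% had at least 2 such summits and 1.56% at least 4, and nothing is read from the Phs count. The share of peaks with CGTAT differed along the conservative list, at 23.6% of the strongest 25% of peaks, then 31.9 and 35.9%, and 31.8% of the weakest 25%, and peaks with at least 2 copies of CGCATACG, as at peak A in the HmgZ intron, numbered 7 of 1148 among the strongest 25%, then 13 and 4 of 1148, and 3 of 1149 among the weakest 25%.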
